A study of Mus musculus with 4 samples.

Results

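The Ms4a family codes for small proteins that cross the membrane 4 times, and its mouse genes sit side by side on chromosome 19. This report follows 7 of them, Ms4a4a, Ms4a4b, Ms4a4c, Ms4a6b, Ms4a6c, Ms4a6d and Ms4a7, through every cell type and tumour of a single-cell RNA sequencing experiment on immune cells from mouse melanomas. The members are a list of gene names, made when earlier results of these data were known. They are 7 of 32285 genes in the count table and 7 of the 19 genes whose symbol starts with Ms4a, and each of the 7 had UMIs (unique molecular identifiers, which count captured transcripts).

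The family is best known for CD20 (Ms4a1) on B cells and for Ms4a2, the beta chain of the IgE receptor of mast cells. The members studied here are carried by other blood cells. Ms4a4b is a T and NK cell protein that was found beside the co-stimulatory receptor GITR, Ms4a4a and Ms4a7 are known from macrophages, and Ms4a4c and the Ms4a6 genes are known from monocytes and macrophages, where Ms4a4c is commonly listed among genes that interferons induce. Less is known of what the proteins do, and several are thought to sit beside other receptors and tune their signalling.

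All tumours came from the YUMM1.7 mouse melanoma line carrying ovalbumin, and all grew in Rag2-/- hosts, whose own T and B cells do not develop. Every host received OT-1 T cells, CD8+ cells that recognise an ovalbumin peptide, on day 7, and live CD45+ cells were sorted from the tumours on day 10. NTT was the tumour of a line naive to targeted therapy, RTT that of a line with acquired resistance, RTT_ROSA26 that of a resistant line with a control guide, and RTT_PTGS12KO that of a resistant line without Ptgs1 and Ptgs2, the cyclooxygenases that start prostaglandin synthesis. The knockout was made in the cancer cells, so the immune cells of all 4 samples were of the same host and donor kind. Each group has 1 sample, described as 1 tumour in the labels and as a pool in the study's legends, so that a line, its tumour and its treatment cannot be told apart. No p-value is given for this reason, and every interval is a 95% interval that covers counting error only.

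The table held 33368 cells, between 6836 and 10296 per sample, with total UMIs from 69332486 in NTT to 146829369 in RTT_PTGS12KO. Median UMIs per cell ran from 7293 in NTT to 13280 in RTT_ROSA26. The authors' 17 cell type names are used. They came from clustering these same cells, so a level that differs between cell types is a description. Ms4a4b ranked 43 in T_CD8 and 58 in NK_cells by its ratio to all other cells, Ms4a4c 32 in Infl_Mono and 35 in Monocyte_1, and Ms4a7 15 and Ms4a4a 31 in TAM_C1q, each among at least 2359 genes ranked, so these members may have helped to set those clusters. A level is the UMIs of a gene per 1000000 UMIs (CPM) summed over the cells of 1 sample and cell type, for the 52 groups with at least 20 cells. The method tags 1 end of each transcript, so levels were not divided by length and are compared within a gene, not between genes. All samples were pooled and loaded 3 times, and the range over loads given beside some values is technical. Of 33270 distinct barcodes, 75 occurred in more than 1 sample.

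All 7 members lie within 284 kb of chromosome 19 (GENCODE, GRCm38), an interval that also holds Ms4a4d. Ms4a7 (11321039 to 11336146) and Ms4a6d (11586604 to 11604849) are on the minus strand. Between them, on the plus strand, lie Ms4a4a (11375523 to 11392790), Ms4a4c (11404770 to 11427246), Ms4a4b (11443553 to 11467055), Ms4a6c (11469366 to 11482192) and Ms4a6b (11516512 to 11531256). All are annotated as protein coding. Ms4a4b and Ms4a4c are neighbours and near copies, with 91.7% identity over 678 aligned coding bases. Ms4a6b was 86.4% identical to Ms4a6c and 81.8% to Ms4a6d, and Ms4a6c was 79.6% identical to Ms4a6d. The other pairs ran from 60.8% to 69.9%. Such copies can share reads. Of the 411 stretches of 90 bases in the last 500 bases of each transcript, 7 of Ms4a6c also occurred in Ms4a6b, and none of the other members' occurred in another gene. Tags of Ms4a4b and Ms4a4c could therefore be told apart in this window, and a small part of the Ms4a6c tags may be uncertain.

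The likeness extends to the start sites. The stretches of Ms4a4b and Ms4a4c are shown because this closest pair differed in where it was expressed, and those of Ms4a6b, Ms4a6c and Ms4a7 because they hold an interferon motif. RefSeq promoters (GRCm38.p6) were at hand for 6 of the 7 members, and the 250 bases before each start were searched on both strands for GAAANNGAA, the core of the interferon-stimulated response element, for TTCNNNGAA, the gamma-activated site, and for GAGGAA, a PU box. These occurred in 7.13%, 7.02% and 23.3% of 32851 promoters. The aligned stretches of Ms4a4b (chr19:11443422-11443553, plus strand) and Ms4a4c (chr19:11407528-11407660, plus strand) had 117 of 132 bases the same, and capitals mark the PU box, 64 bases before the start in Ms4a4b and 61 in Ms4a4c. The RefSeq start of Ms4a4c used here lies inside the longer GENCODE gene, so its stretch is intronic in that annotation, and the same holds for the stretch of Ms4a6b and the first of Ms4a7 given next.
Ms4a4b: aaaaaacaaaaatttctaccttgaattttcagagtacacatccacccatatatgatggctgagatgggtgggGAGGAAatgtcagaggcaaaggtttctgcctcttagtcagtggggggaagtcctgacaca
Ms4a4c: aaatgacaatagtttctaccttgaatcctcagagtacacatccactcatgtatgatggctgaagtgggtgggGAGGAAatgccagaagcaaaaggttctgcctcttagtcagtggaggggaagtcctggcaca

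The windows of Ms4a6b and Ms4a6c had 148 of 172 aligned bases the same (86.0%). Both held GAAANNGAA, 206 bases before the start in Ms4a6b (chr19:11518323-11518391, plus strand) and 133 in Ms4a6c (chr19:11469205-11469273, plus strand). Ms4a7 has 2 RefSeq starts, and a match lay 148 bases before one (chr19:11334805-11334873, minus strand) and, on the opposite strand, 71 bases before the other (chr19:11336179-11336247, minus strand). Capitals mark the match, with 30 bases on each side.
Ms4a6b: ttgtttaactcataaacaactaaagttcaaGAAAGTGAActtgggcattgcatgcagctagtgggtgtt
Ms4a6c: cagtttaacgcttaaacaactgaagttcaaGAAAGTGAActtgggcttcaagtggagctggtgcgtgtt
Ms4a7: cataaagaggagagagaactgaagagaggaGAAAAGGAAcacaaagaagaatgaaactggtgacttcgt
Ms4a7, other start: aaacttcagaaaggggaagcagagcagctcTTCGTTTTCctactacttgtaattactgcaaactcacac
None of the windows held TTCNNNGAA, and those of Ms4a4a, Ms4a4b and Ms4a4c did not hold GAAANNGAA. This says only that these letters are not in these windows.

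Ms4a4b was the lymphoid member. In T_CD8 it reached 1359.7 CPM (interval 1302 to 1419) in NTT and 1159.0 CPM (1098 to 1223) in RTT_PTGS12KO, the samples with at least 20 such cells. NK_cells held 1149.5 CPM in NTT, 511 CPM in RTT_ROSA26 and 713 CPM in RTT_PTGS12KO. The NTT level in NK_cells was above that of both resistant samples, though RTT_ROSA26 had only 26 NK cells and its loads ran from 299 to 721 CPM. In the same order the 4 NK markers (Ncr1, Klrb1c, Gzma and Klre1) summed to 10397, 3049 and 6065 CPM in NK_cells. The 6 macrophage markers (C1qa, C1qb, C1qc, Apoe, Mrc1 and Adgre1) summed to 1067, 7329 and 1224 CPM there. The part of these markers was not tested. Outside T_CD8 and NK_cells Ms4a4b did not exceed 44.7 CPM. A UMI of Ms4a4b was found in 97.0% of NK cells of NTT (95.5% to 98.2%; median 7669 UMIs per cell) and in 13.7% of TAM_C1q cells of RTT (12.6% to 14.9%; median 13182), or 89.2% and 3.26% after thinning each cell to 3000 UMIs. Macrophages are not known to carry Ms4a4b. The level in TAM_C1q was 11.6 CPM in RTT, 5.74 in RTT_ROSA26 and 3.81 in RTT_PTGS12KO, and its source was not tested.

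Infl_Mono was the myeloid type with the highest Ms4a4b, with 44.7 CPM in NTT, 29.8 CPM in RTT, 17.4 CPM in RTT_ROSA26 and 35.7 CPM in RTT_PTGS12KO. In all 4 samples this was above the level in Monocyte_1, by log2 ratios of 1.57, 1.71, 0.84 and 2.05 in the same order. The RTT_ROSA26 ratio rests on 10 and 4 UMIs, with intervals of the levels that overlap. The 4 NK markers summed to between 3.48 and 7.95 CPM in Infl_Mono and to 10397 CPM in NK_cells of NTT, and the 4 T cell markers summed to at most 1.20 CPM in Infl_Mono. Without the cells that held a T or NK marker UMI the Infl_Mono levels were 45.0, 29.1, 17.6 and 36.6 CPM. Ms4a4c, the near copy of Ms4a4b, had its highest level in the same cells.

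Ms4a4c was highest in monocytes. In Infl_Mono it reached 2115 CPM in NTT, 1005 CPM in RTT, 1153 CPM in RTT_ROSA26 and 1614 CPM in RTT_PTGS12KO. Monocyte_1 held 1125, 709.6, 892 and 800.3 CPM. Infl_Mono ranked first in each of the 4 samples, and its counting interval did not overlap that of the next type in any of them. In NTT the levels of cDC2 (1168 CPM), Monocyte_1 and Monocyte_3 (1007 CPM) came next, and each neighbour overlapped the one before from there down to TAM_H2Ab1 (939.8 CPM), Macro (845 CPM) and Neutro (796 CPM). At the other end, TAM_C1q macrophages had 62.0 CPM in RTT, 42.4 in RTT_ROSA26 and 90.1 in RTT_PTGS12KO, a log2 ratio to Monocyte_1 of -3.52, -4.40 and -3.15.

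Ms4a7 was highest in macrophages, and its pattern had little relation to that of Ms4a4c (r = -0.10 over 42 groups). TAM_C1q held 1380.2 CPM in RTT, 1556 in RTT_ROSA26 and 1128 in RTT_PTGS12KO, and TAM_H2Ab1 held 1074 in NTT, 1031 in RTT and 881 in RTT_PTGS12KO. TAM_C1q exceeded Monocyte_1 by log2 ratios of 3.05, 2.28 and 2.80 and TAM_Spp1 by 2.35, 1.90 and 1.63 in RTT, RTT_ROSA26 and RTT_PTGS12KO. Macrophage types thus differed among themselves, with TAM_Spp1 between 258 and 418 CPM. Monocytes were not always low, since Infl_Mono of RTT, at 748 CPM, stood above TAM_Spp1 (271 CPM) and overlapped Macro (665 CPM) of that sample. Neutro held 142 CPM in NTT, 555 in RTT, 819 in RTT_ROSA26, above Macro there (621 CPM), and 283 in RTT_PTGS12KO. Per 1000 UMIs of the 3 C1q genes Neutro held 117, 126 and 80.4 Ms4a7 UMIs in RTT, RTT_ROSA26 and RTT_PTGS12KO. TAM_C1q held 123, 146 and 123, and the source in Neutro was not tested. Dendritic cells were lower, with DC3 at 72.6 CPM in NTT and 64.2 in RTT_PTGS12KO, cDC2 from 23.4 to 33.4 CPM and cDC1 at 4.29 CPM in NTT and 9.26 in RTT_PTGS12KO.

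Ms4a4a was found in macrophages and monocytes and stayed under 100 CPM in all 52 groups. Its highest level was 81.9 CPM (79.4 to 84.5) in TAM_C1q of RTT, against 35.8 CPM in RTT_ROSA26 and 24.4 CPM in RTT_PTGS12KO. In RTT the next types were Infl_Mono (66.0 CPM), TAM_Spp1 (60.2), TAM_H2Ab1 (50.9) and TAM_cycling (45.6), each overlapping its neighbour in the order. The order changed between samples. Infl_Mono came first in RTT_ROSA26 (48.7 CPM), Monocyte_3 (28.1 CPM, from 33 cells) and Infl_Mono (26.7 CPM) stood before TAM_C1q in RTT_PTGS12KO, and in NTT TAM_Spp1 (51.6 CPM, from 20 cells) was followed by Monocyte_3 and Infl_Mono, with intervals that overlapped in each case. It was 8.93 CPM or less in cDC2, at 0 UMIs in cDC1, and under 10 CPM in 19 of 52 groups.

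The Ms4a6 genes were broad. Ms4a6b was at 100 CPM or more in 46 of 52 groups, Ms4a6c in 46 and Ms4a6d in 44, with maxima of 1096 CPM for Ms4a6b and 1414 CPM for Ms4a6c, both in Infl_Mono of NTT, and 1445 CPM for Ms4a6d in TAM_C1q of RTT. All 3 were higher in Infl_Mono than in Monocyte_1 in each of the 4 samples, by log2 ratios between 0.21 and 0.61, and higher in TAM_C1q than in TAM_Spp1 in each of the 3 samples that had both, by 0.32 to 0.64. In T_CD8 Ms4a6b had 554 CPM in NTT and 360.4 in RTT_PTGS12KO, near its median over all groups (447 CPM). Ms4a6c was at 70.5 and 28.5 CPM there and Ms4a6d at 71.8 and 54.4 CPM, both far under their medians (604 and 633 CPM). In NK_cells all 3 were low, at 122 to 215 CPM for Ms4a6b, 79.0 to 181 for Ms4a6c and 69.4 to 222 for Ms4a6d. Ctsk_Macro of RTT held 1318 CPM of Ms4a6d, within the range of the other macrophages, while its 293 CPM of Ms4a6b and 462 CPM of Ms4a6c were lower than in TAM_C1q (956 and 1037 CPM). This did not hold in RTT_ROSA26, where the 452 CPM of Ms4a6d in Ctsk_Macro was under the other macrophage types with a level (549 to 964 CPM).

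**Figure D1:**
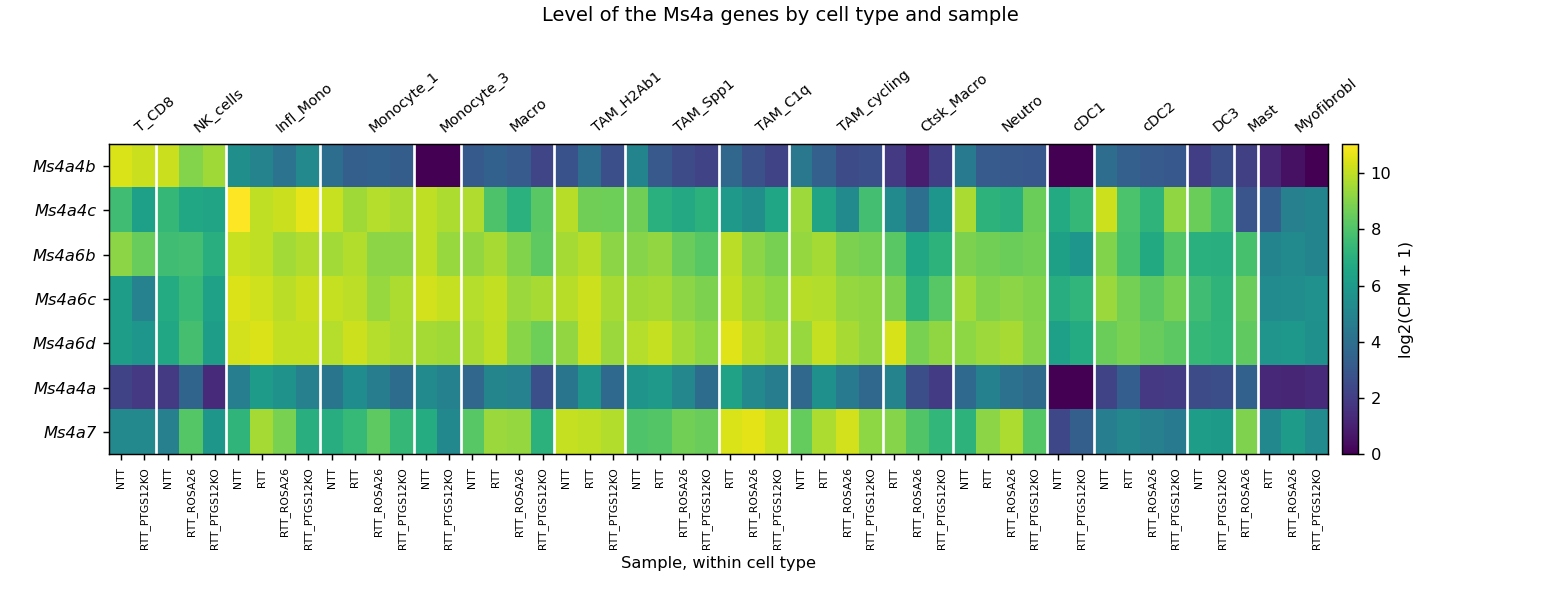
Level of the 7 members (log2(CPM + 1), colour) in the 52 groups of sample and cell type with at least 20 cells. Ms4a4b is bright in T_CD8 and NK_cells, Ms4a4c in monocytes and in the NTT columns, Ms4a7 in TAM_C1q (1128 to 1556 CPM), and the Ms4a6 genes nearly everywhere.

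The members were also set beside all other genes by their pattern. Over the 42 groups with at least 50 cells and 5112 genes, the genes outside the family with the highest Pearson r to Ms4a4c were the interferon-inducible genes Ifi213 (0.95) and Ifi209 (0.93), followed by Phf11b (0.93). Ms4a7 was most like Lgmn (0.95), a lysosomal protease, the scavenger receptor Stab1 (0.94) and the lipid carrier Apoe (0.93). For Ms4a4a they included Apoc2 (0.92) and the lysozyme gene Lyz2 (0.88), and for Ms4a4b the T cell kinase Prkcq (0.92), the granule protease Gzmb (0.91) and Gimap3 (0.90). Ms4a6c led with Tifab (0.98), Unc93b1 (0.95), which carries Toll-like receptors to the endosome, and Ggh (0.95). Ms4a6d had Milr1, the growth factor receptor Csf1r and Hacd4 (all 0.93), and Ms4a6b had Lgals9 (0.89), Il18 (0.88) and Gng2 (0.87). These groups share libraries and differ in depth, and the values are descriptions.

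Sequence likeness and likeness of expression did not go together for the closest pair. Ms4a6c and Ms4a6d had r = 0.92 over the 42 groups, Ms4a6b and Ms4a6c 0.87, and Ms4a4a and Ms4a6d 0.87 although their coding bases were 61.1% identical. Ms4a4b and Ms4a4c, the most alike in sequence, had r = 0.31. Ms4a7 had r = -0.10 to Ms4a4c and -0.31 to Ms4a4b.

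**Figure D2:**
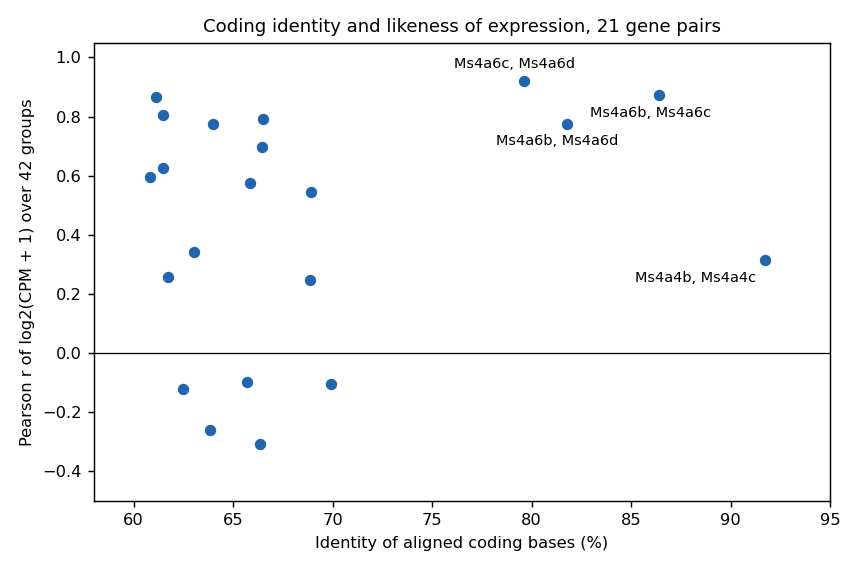
Identity of aligned coding bases (x axis, %) against Pearson r of log2(CPM + 1) over 42 groups (y axis) for the 21 pairs of members. The pair furthest to the right, Ms4a4b and Ms4a4c (91.7%), sits at r = 0.31, well under Ms4a6c and Ms4a6d (79.6%, r = 0.92).

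The comparison of NTT with RTT asks how the members differ between tumours before and after acquired resistance, within the same cell type. It covers 6 cell types with at least 50 cells in both samples, and 41 of 42 pairs of member and cell type had a mean of at least 10 CPM. Past 2-fold, 8 pairs (19.5%) were higher in NTT and 9 (22.0%) lower, against 4.11% and 4.13% of all 39814 pairs of gene and cell type. Ms4a4c was higher in NTT in 6 of 6 types, 5 of them past 2-fold. Ms4a4a was lower in 5 of 5, all past 2-fold, and Ms4a7 lower in 5 of 6, 3 of them past 2-fold, with an interval that held 0 in cDC2 (-0.93 to 0.11). Ms4a6d was lower in 6 of 6, by 0.19 to 0.90 on the log2 scale, and none passed 2-fold. In Neutro that difference (-0.29) turned to 0.39 with the mean of per-cell CPM and to 0.042 in 1 load. The study placed Ms4a4c on a list drawn from RTT_ROSA26 and RTT_PTGS12KO, so its values in those samples are not independent of that choice.

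Ms4a4c in TAM_cycling was 683 CPM (641 to 728) in NTT and 86.2 CPM (82.0 to 90.6) in RTT, a 7.93-fold difference (log2 ratio 2.99, interval 2.87 to 3.10, loads 2.90 to 3.05). In neutrophils it was 796 CPM against 141, or 5.63-fold, and in cDC2 1168 against 238, or 4.90-fold. The log2 ratio was 1.23 in TAM_H2Ab1, 1.07 in Infl_Mono and 0.66 in Monocyte_1. The 4 monocyte markers (Ly6c2, Plac8, Ccr2 and Chil3) moved with it: they summed to 2522 CPM in NTT and 209.8 in RTT in TAM_cycling, to 4784 and 2189 in Neutro, to 4736 and 734 in cDC2, to 1174.5 and 426 in TAM_H2Ab1, to 10861 and 5482 in Infl_Mono and to 6509.6 and 2514 in Monocyte_1, all 4 detected in each. Their part in the result was not tested.

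Ms4a7 in Infl_Mono was 149 CPM in NTT and 748 CPM in RTT, 5.03-fold lower in NTT (log2 ratio -2.33, -2.44 to -2.21, loads -2.93 to -1.63). Neutro held 142 CPM against 555 (log2 ratio -1.97) and TAM_cycling 347 against 824 (-1.25). In TAM_H2Ab1, where the gene is high, the samples had 1074 and 1031 CPM and the interval of the log2 ratio, -0.05 to 0.17, held 0. The 6 macrophage markers (C1qa, C1qb, C1qc, Apoe, Mrc1 and Adgre1) were all detected and summed to 4554 CPM in NTT and 24281 in RTT in Infl_Mono, to 4762 and 17644 in Neutro and to 11137 and 26746 in TAM_cycling. The 3 C1q genes alone differed less, at 3316 and 6061 CPM in Infl_Mono, 3090 and 4738 in Neutro and 7587 and 9888 in TAM_cycling. The part of these markers was not tested. Per 1000 UMIs of the 3 C1q genes, Infl_Mono held 44.8 Ms4a7 UMIs in NTT and 123 in RTT, and TAM_C1q of RTT 123. Monocyte_1 held 30.9 in NTT and 28.1 in RTT.

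Ms4a4a fell by between 1.11 and 1.93 on the log2 scale from RTT to NTT. The counts were largest in Monocyte_1, with 730 UMIs (18.4 CPM) in NTT and 146 (40.2 CPM) in RTT. TAM_cycling had the largest difference, with 17 UMIs (11.9 CPM) and 830 UMIs (45.6 CPM). The 6 macrophage markers moved with it in Monocyte_1 (5283 CPM in NTT, 11374 in RTT) and TAM_H2Ab1 (19034 and 31880) as well as in the types given above, and their part was not tested. With 10 CPM added to each level, Monocyte_1 and Neutro were no longer past 2-fold (log2 ratios -0.82 and -0.73). Among the broad members only Ms4a6b passed 2-fold, in cDC2, with 488 CPM in NTT and 228 in RTT (log2 ratio 1.10, 0.94 to 1.25), where the monocyte markers given above also differed. Ms4a4b passed 2-fold on few UMIs. Its 27 UMIs in Neutro of NTT stood against 12 in RTT (log2 ratio 1.54) and its 29 in TAM_cycling against 171 (1.12), where the summed NK markers were also higher in NTT (67.0 against 4.65 CPM and 67.4 against 10.0 CPM). Without cells holding a T or NK marker UMI these ratios were 0.84 and 0.56. In TAM_H2Ab1 the direction was the opposite, at 12 UMIs against 13 (-1.37).

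The comparison of RTT_PTGS12KO with RTT_ROSA26 asks what the loss of Ptgs1 and Ptgs2 in the cancer cells goes with in the immune cells. It covers 9 cell types, and 53 of 63 pairs had at least 10 CPM in the mean. Past 2-fold, 9 pairs (17.0%) were higher in RTT_PTGS12KO and 6 (11.3%) lower, against 3.70% and 3.54% of 60249 pairs of all genes. Of the 9 higher pairs 6 were Ms4a4c, and the lower pairs were Ms4a7 (4) and Ms4a4a (2). The median log2 ratio over cell types was 1.19 for Ms4a4c, -0.99 for Ms4a7 and -0.87 for Ms4a4a, and it lay between -0.33 and 0.22 for the Ms4a6 genes.

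Ms4a4c was higher in RTT_PTGS12KO in 8 of 9 types. TAM_cycling had 213 CPM (209 to 218) against 37.1 CPM (35.3 to 39.0), or 5.74-fold, from 8713 and 1583 UMIs (log2 ratio 2.52, loads 2.41 to 2.59). cDC2 had 585 CPM against 144 (4.06-fold), Ctsk_Macro 55.3 against 15.6 (3.54-fold) and Neutro 382 against 123 (3.10-fold). Macro and TAM_C1q also passed 2-fold, at log2 ratios of 1.19 (loads 0.28 to 1.94) and 1.09 (loads 0.92 to 1.29). Infl_Mono and TAM_Spp1 were higher by 0.49 and 0.44, and Monocyte_1 was the exception, with 800.3 CPM against 892 (log2 ratio -0.16, -0.31 to -0.01). The 4 monocyte markers summed to 723 against 192 CPM in TAM_cycling, 2275 against 742 in cDC2, 142 against 79.4 in Ctsk_Macro, 3458 against 1123 in Neutro, 2176 against 1163 in Macro and 334 against 176 in TAM_C1q. They were also higher in Infl_Mono (13613 against 8786), but lower in TAM_Spp1 (904 against 1219) and Monocyte_1 (4459 against 4620), and their part was not tested. The share of TAM_cycling cells with a Ms4a4c UMI was 78.2% against 37.6%, at median depths of 20656 and 20412 UMIs, or 38.1% and 8.63% after thinning to 3000 UMIs. In Myofibrobl, cells that are not known to carry the gene, the shares in RTT_PTGS12KO and RTT_ROSA26 were 24.3% and 20.3% at median depths of 38225 and 32760 UMIs, or 7.10% and 5.58% after thinning.

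Ms4a7 was lower in RTT_PTGS12KO in 9 of 9 types, 8 of them with an interval below 0, while cDC2 (log2 ratio -0.20) had an interval of -0.67 to 0.27 and was at 0.31 in 1 load. Macro had 138 CPM against 621 (4.51-fold lower, log2 ratio -2.17, loads -3.78 to -1.38) and Infl_Mono 123 against 449 (3.66-fold, log2 ratio -1.87, loads -2.52 to -0.84), so that 1 load of Infl_Mono was short of 2-fold. The other types past 2-fold were Neutro, at 283 against 819 (2.90-fold), and TAM_cycling, at 580.4 against 1240.0 (2.14-fold, from 23743 and 52852 UMIs). The fall was smaller in TAM_C1q, at a log2 ratio of -0.46 (-0.49 to -0.44, loads -0.55 to -0.41), and in TAM_Spp1, at -0.19. Monocyte_1 stood at -0.99, just short of 2-fold, with 132 UMIs in RTT_ROSA26. In Ctsk_Macro the ratio was -0.74 over all loads and ran from -1.14 to 0.20 between them. The 6 macrophage markers went from 35936 CPM in RTT_ROSA26 to 9202 in RTT_PTGS12KO in Macro, from 10028 to 3319.5 in Infl_Mono, from 18137 to 6967 in Neutro, from 24439 to 13177 in TAM_cycling and from 34124 to 21602 in TAM_C1q. They moved less in Monocyte_1 (7106 to 6493), cDC2 (2078 to 1763) and TAM_Spp1 (12564 to 12079) and were higher in Ctsk_Macro (6999 to 8447), and their part was not tested. The 3 C1q genes alone rose in Monocyte_1 (3298 to 4350.5 CPM) and TAM_Spp1 (3720 to 5241), where Ms4a7 fell. They fell in Infl_Mono (2604 to 1584), Neutro (6502 to 3519), TAM_cycling (9647 to 7513), TAM_C1q (10693 to 9160) and cDC2 (1369 to 1256). Per 1000 C1q UMIs, TAM_cycling held 129 Ms4a7 UMIs in RTT_ROSA26 and 77.3 in RTT_PTGS12KO, Infl_Mono 172 and 77.4, and TAM_C1q 146 and 123.

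**Figure D3:**
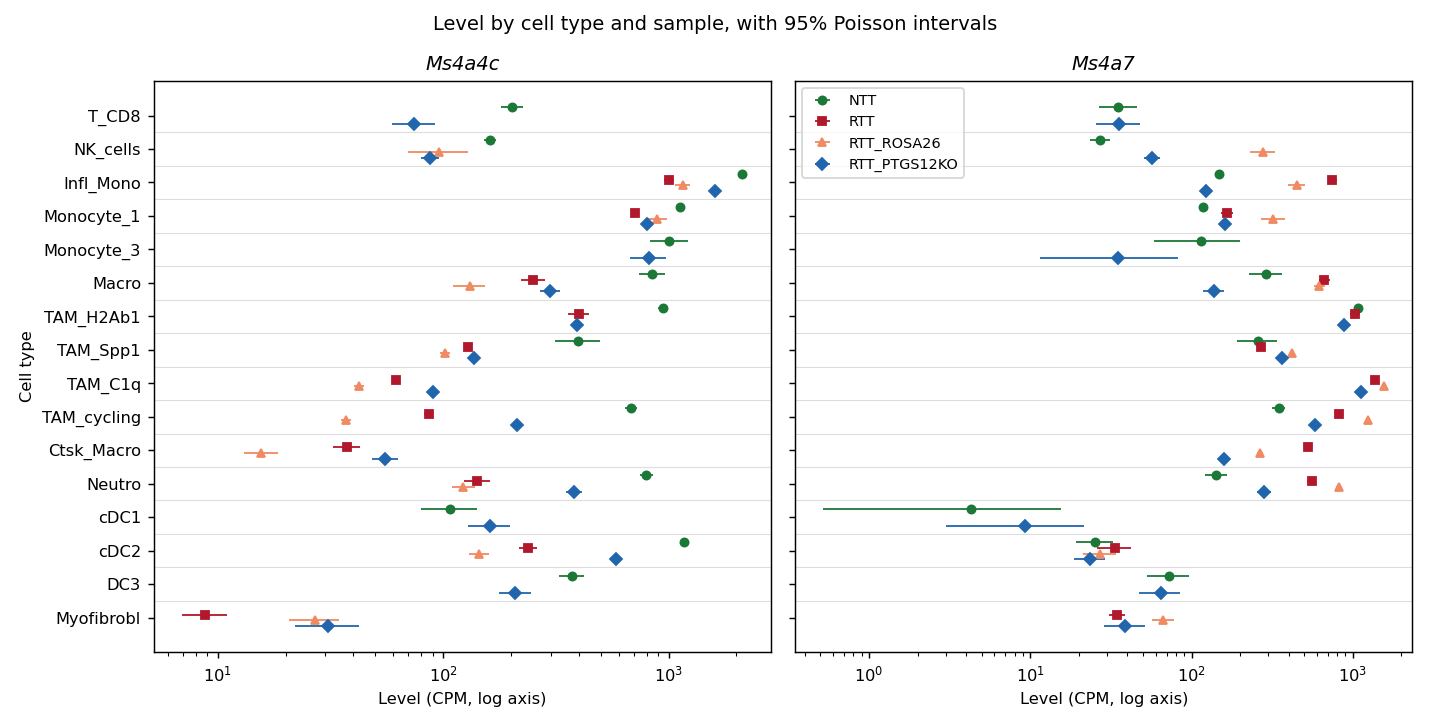
Level of Ms4a4c (left) and Ms4a7 (right) by cell type in CPM on a log axis, with 1 marker per sample and bars for 95% Poisson intervals. For Ms4a4c the NTT marker lies furthest right in most cell types and RTT_PTGS12KO to the right of RTT_ROSA26 in all compared types but Monocyte_1, and for Ms4a7 the RTT_PTGS12KO marker lies to the left of RTT_ROSA26 in all 9 compared types.

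The shares of Infl_Mono cells with a Ms4a7 UMI did not follow the levels in every sample. A Ms4a7 UMI was found in 32.8% of the Infl_Mono cells of NTT, 47.8% of those of RTT, 26.7% of those of RTT_ROSA26 and 20.9% of those of RTT_PTGS12KO (medians 6787, 7452, 5961 and 7427 UMIs), and after thinning 21.7%, 40.8%, 22.4% and 12.9%. In cDC2, which are not known for this gene, the shares in the same order were 9.93%, 17.8%, 11.8% and 9.59% (medians 7236, 11325, 8785 and 9169 UMIs), or 3.74% to 6.79% after thinning. NTT had a higher share than RTT_ROSA26, and a close one after thinning, although its level was lower (149 against 449 CPM), and in RTT_ROSA26 the 258 UMIs lay in 23 of 86 cells. The Infl_Mono shares were above those of cDC2 in each sample, while TAM_C1q lay between 98.9% and 99.5%.

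For the Ms4a6 genes few pairs passed 2-fold between the knockout and its control. Ms4a6b in cDC2 was 273 CPM against 104 (log2 ratio 1.39, 1.19 to 1.58), with the monocyte markers at 2275 against 742 CPM there and their part not tested, Ms4a6c in Ctsk_Macro 289 against 137 (1.07, 0.95 to 1.19), and no other pair of the Ms4a6 genes passed 2-fold. In TAM_C1q all 3 were lower in RTT_PTGS12KO by 0.29 to 0.35. Ms4a4a was lower in 7 of 7 types with enough counts, though the intervals held 0 in Monocyte_1 (-1.66 to 0.30) and Neutro (-1.24 to 0.46), with 24.4 against 35.8 CPM in TAM_C1q (log2 ratio -0.56), 14.2 against 33.2 in TAM_Spp1 (-1.23) and 5.48 against 28.9 in Macro (-2.40, from 7 and 32 UMIs). With 10 CPM added to each level, TAM_Spp1 was no longer past 2-fold. Ms4a4b reached the minimum only in Infl_Mono, with 35.7 against 17.4 CPM (log2 ratio 1.04, 0.13 to 2.12). That ratio rests on 10 UMIs in RTT_ROSA26 and was -0.044 in 1 of the 3 loads.

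RTT_ROSA26 against RTT compares resistant tumours that both keep the targeted genes and shows how far samples of that kind differ. Over 10 cell types 59 of 70 pairs reached that minimum. Past 2-fold, 1 pair (1.69%) was higher in RTT_ROSA26 and 8 (13.6%) lower, against 1.97% and 2.51% of 67539 pairs of all genes. Of the 8 lower pairs 5 were in Ctsk_Macro, where the log2 ratio was -2.50 for Ms4a4a, -1.75 for Ms4a6c, -1.69 for Ms4a6b, -1.54 for Ms4a6d and -1.26 for Ms4a4c, and the median was -1.62 over 6 members and 0.01 over 6905 genes. The 6 macrophage markers, all detected, summed to 21500 CPM there in RTT and 6999 in RTT_ROSA26, and their part was not tested. The other lower pairs were Ms4a4a in TAM_C1q (81.9 against 35.8 CPM, log2 ratio -1.19), Ms4a4c in TAM_cycling (-1.22) and Ms4a6b in cDC2 (-1.13).

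The same direction was common over all pairs that reached the minimum, those past 2-fold included. Ms4a6b was lower in RTT_ROSA26 than in RTT in 9 of 10 types, Ms4a6c and Ms4a6d in 8 of 10 and Ms4a4a in 8 of 8, with medians of -0.66, -0.49, -0.46 and -0.80. For Ms4a4a 5 of the 8 intervals lay below 0, and Macro (-0.11, interval -0.86 to 0.64) was at 0.45 and 0.075 in 2 of the 3 loads. From RTT to RTT_ROSA26 the 6 macrophage markers went from 43245 to 34124 CPM in TAM_C1q, from 24281 to 10028 in Infl_Mono, from 11374 to 7106 in Monocyte_1, from 16305 to 12564 in TAM_Spp1, from 26746 to 24439 in TAM_cycling and from 2586 to 2078 in cDC2. They were slightly higher in Macro (35126 to 35936), Neutro (17644 to 18137) and Myofibrobl (1187 to 1235), and their part was not tested. TAM_C1q, with 47350 and 19129 UMIs of Ms4a6b, had 956 CPM in RTT and 554 in RTT_ROSA26 (log2 ratio -0.79, loads -0.81 to -0.77), while the median of all genes in that cell type was 0.01. For RTT_PTGS12KO against RTT_ROSA26 the ratios in TAM_C1q were nearer to 0, at -0.35 for Ms4a6b, -0.29 for Ms4a6c and -0.33 for Ms4a6d, and the difference between these comparisons, which share RTT_ROSA26, was not tested. Ms4a7 was higher in RTT_ROSA26 in 6 of 10 types, by 0.96 in Myofibrobl (loads -0.81 to 2.51), 0.95 in Monocyte_1, 0.63 in TAM_Spp1 and 0.59 in TAM_cycling, and lower in 4, with 1.99-fold in Ctsk_Macro.

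**Figure D4:**
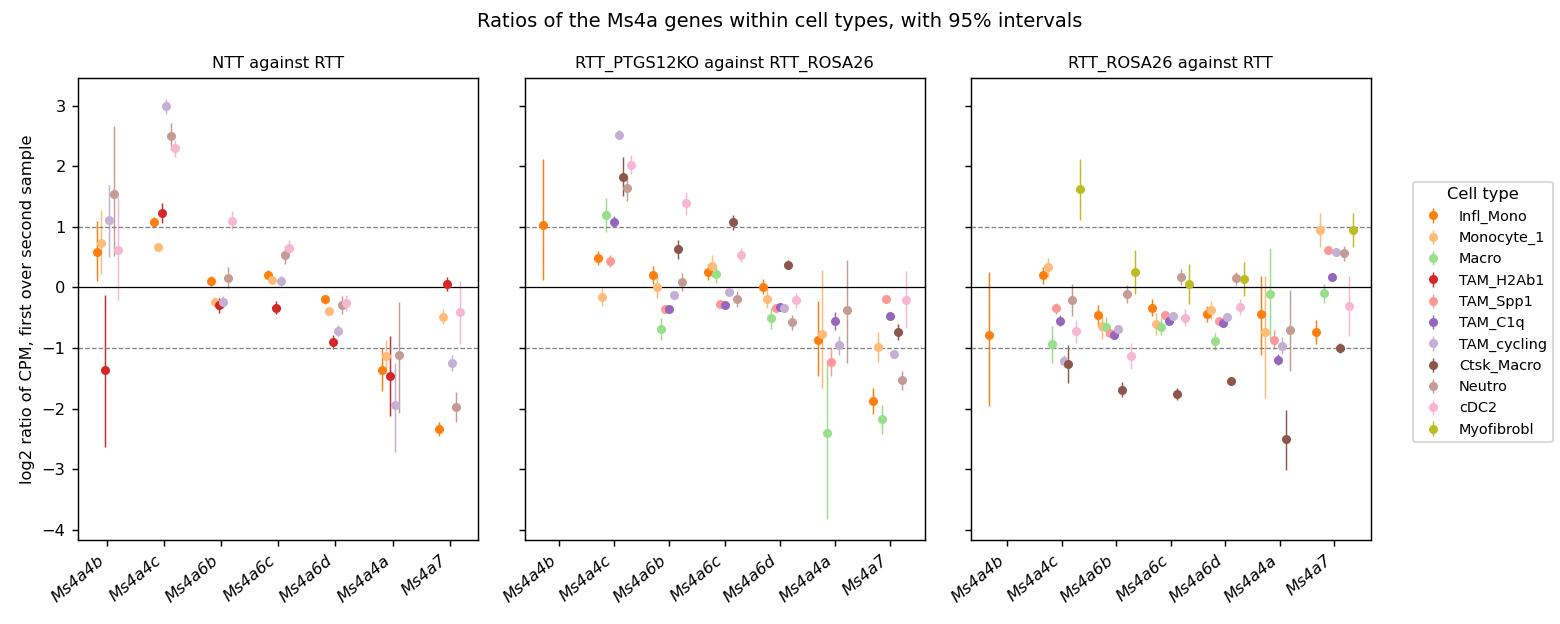
Log2 ratio of CPM (y axis, first over second sample) for each member, 1 panel per comparison and 1 point per cell type with at least 50 cells in both samples, with bars for 95% counting intervals. Ms4a4c lies above 0 in 6 of 6 types in NTT against RTT and in 8 of 9 in RTT_PTGS12KO against RTT_ROSA26, Ms4a7 below 0 in 5 of 6 and 9 of 9, and the Ms4a6 genes lie mostly below 0 in RTT_ROSA26 against RTT.

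Because the resistant controls differed, RTT_PTGS12KO was also set against both together, a count added after the values were seen. Ms4a4c in RTT_PTGS12KO lay above both RTT and RTT_ROSA26 in 8 of 9 types and between them in Monocyte_1. Ms4a7 lay below both in 8 of 9, Ms4a4a below both in 8 of 8, Ms4a6d in 7 of 9, and Ms4a6b and Ms4a6c in 4 of 9 each. These positions carry no margin. Ms4a7 in Monocyte_1 was at 161.5 CPM against 166.1 in RTT (153 to 180). In cDC2 it was at 23.4 CPM (18.6 to 29.1) against 27.0 in RTT_ROSA26 (21.2 to 33.9). Ms4a4a in Ctsk_Macro reached the minimum only through RTT (29.7 CPM, against 5.24 in RTT_ROSA26 and 2.84 in RTT_PTGS12KO). Of all 60420 pairs of gene and cell type, 28.4% lay above both and 42.0% below both, so the counts of Ms4a6b and Ms4a6c are near the background. The comparisons share RTT and RTT_ROSA26, so their ratios are not independent of each other.

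The members were also summed over all sorted cells, which adds the differences in which cells the samples hold. Fewer cells of a type and less RNA per cell cannot be told apart in such sums. Ms4a4b stood at 167 CPM in NTT, 10.6 CPM in RTT, 7.69 CPM in RTT_ROSA26 and 41.3 CPM in RTT_PTGS12KO. In that order Ms4a4c was 1132, 113, 60.5 and 386 CPM, and Ms4a7 was 146, 834, 1073 and 473 CPM. In NTT against RTT 2 of 7 members were past 2-fold higher and 2 lower, against 7.44% and 6.66% of all genes. In RTT_PTGS12KO against RTT_ROSA26 2 of 7 were higher and 1 lower, against 3.68% and 2.08%, and in RTT_ROSA26 against RTT 0 of 6 were higher and 1 lower, against 0.504% and 1.09%.

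Giving both samples the same mix of the cell types they share changed the ratios of the members that are bound to a few cell types. For NTT against RTT the log2 ratio of Ms4a4c went from 3.32 to 1.19, of Ms4a4b from 3.98 to 0.78 and of Ms4a7 from -2.52 to -1.13. The shared types covered 87.7% of NTT cells but 22.3% of RTT cells. They left out NK_cells and T_CD8, of which RTT held 13 and 1 cells. In NTT these types held 8220 and 2122 of the 11589 Ms4a4b UMIs. The Ms4a4b ratio of 0.78 is thus without the cells that carry most of it. For RTT_PTGS12KO against RTT_ROSA26 the shared types covered 91.2% and 97.8% of cells. There Ms4a4c went from 2.67 to 0.58, Ms4a4b from 2.425 to 0.00096 and Ms4a7 from -1.18 to -0.76. Ms4a4b had no NK or T cells in this common mix, since RTT_ROSA26 held 26 and 2. Its levels in the mix, 5.91 CPM in both samples, were under the minimum of 10 CPM. The Ms4a6 genes, spread over most types, moved by little, Ms4a6b from 0.01 to -0.15, Ms4a6c from 0.09 to -0.04 and Ms4a6d from -0.24 to -0.27. Ms4a4a also kept most of its difference, at -0.87 and -0.81. For RTT_ROSA26 against RTT, where the shared types covered 98.7% and 98.6% of cells, Ms4a4c went from -0.90 to -0.41. Ms4a4b was under the minimum of 10 CPM in the mean, at 7.69 and 10.6 CPM in all cells and 4.99 and 9.21 CPM in the common mix. Its ratios of -0.46 and -0.88 are therefore given as values only. The mix also left out the 26 NK cells, which held 235 of the 848 Ms4a4b UMIs of RTT_ROSA26.

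**Figure D5:**
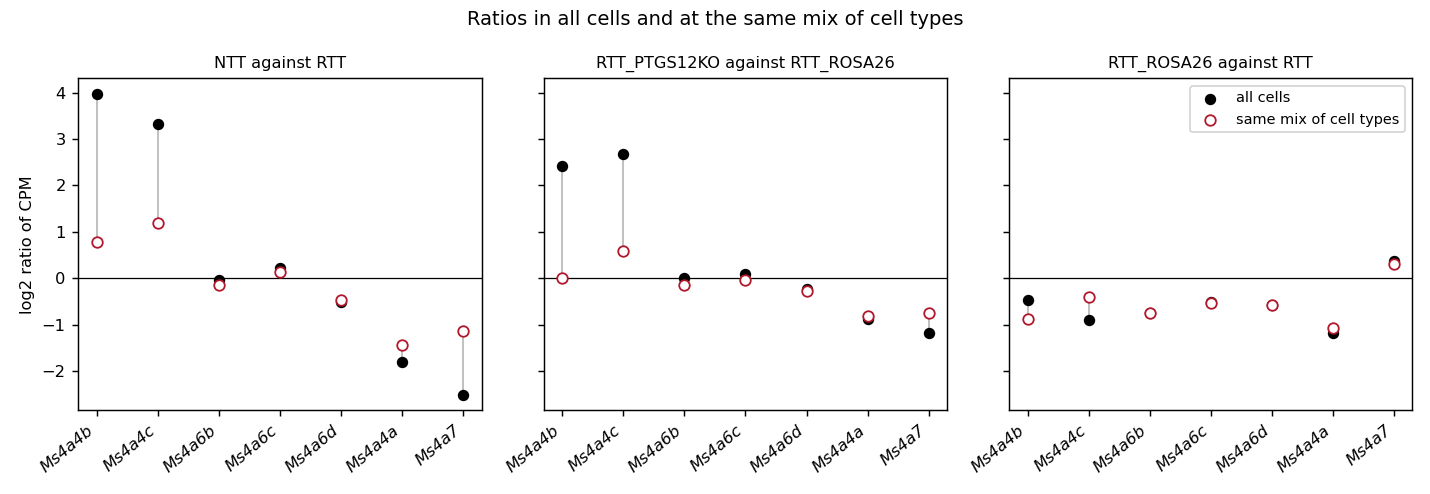
Log2 ratio of CPM for each member in all cells (filled) and with both samples weighted to the same mix of shared cell types (open), 1 panel per comparison. For Ms4a4b and Ms4a4c in RTT_PTGS12KO against RTT_ROSA26 the points lie far apart (2.67 and 0.58 for Ms4a4c), and for the Ms4a6 genes they nearly coincide.

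Of the other family genes, Ms4a8a and Ms4a14 had UMIs in numbers. Ms4a8a had 9481 UMIs and was highest in Macro, where NTT had 197 CPM, RTT 247, RTT_ROSA26 146 and RTT_PTGS12KO 161, with 3.36 to 4.36 CPM in TAM_C1q. Ms4a14 had 3177 UMIs, 55.0% of them in TAM_C1q, where Ms4a7 was also highest. Ms4a2, the mast cell member, had 105 of its 108 UMIs in the Mast cluster. Ms4a1, Ms4a3, Ms4a4d, Ms4a5, Ms4a12 and Ms4a15 had between 3 and 61 UMIs in all 33368 cells, and Ms4a10, Ms4a13 and Ms4a18 had 0.

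Genes whose products are known to act with family members were read from the same sums. Tnfrsf18, which codes for GITR, was at 117 CPM in NTT, 73.9 in RTT_ROSA26 and 109 in RTT_PTGS12KO in NK_cells and at 115 and 118 CPM in T_CD8 of NTT and RTT_PTGS12KO, the cells of Ms4a4b, but it was also high in DC3 (156 and 104 CPM in NTT and RTT_PTGS12KO), where Ms4a4b was at 3.16 and 5.35 CPM. Trem2, a lipid receptor of macrophages that human genetics ties to the MS4A locus, was highest in TAM_C1q, at 569 CPM in RTT, 687 in RTT_ROSA26 and 516 in RTT_PTGS12KO. Fcer1g, the signalling chain that pairs with the IgE receptor, was in all myeloid types, including 4118, 4301 and 3763 CPM in TAM_C1q of the same samples.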

How the data were processed

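Per the labels and the study's methods, the authors sorted live CD45+ cells, labelled the 4 samples with cell multiplexing oligos, pooled them, loaded a 10x 3' chip 3 times (from the labels) and counted with Cell Ranger (multi) on mm10. Cells were kept above 1000 genes and below 15% mitochondrial and 40% ribosomal UMIs, and the authors named cell types with Seurat 4.3.0 after Harmony integration with other experiments (40 dimensions, resolution 0.5). The authors deposited raw UMI counts with a sample and cell type for each cell. The oligos remove doublets between samples, and doublets within a sample were not called.

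UMIs were summed per sample and cell type and divided by all UMIs to give CPM, with exact Poisson intervals for levels, exact conditional binomial intervals for ratios and exact Clopper-Pearson intervals for shares (95%). Ratios within cell types need at least 50 cells in both samples and a mean of at least 10 CPM, and carry no pseudocount. Some Ms4a4b ratios over all cells or at the common mix fall under that minimum and are given as values only. With 1 sample per group no test was made. The named genes are all 7 members, the other family genes and partners listed, and the 3 genes most like each member among those with at least 50 CPM in a group, of which 1 is not reported here. The members and lists were chosen with earlier results of these data known.

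Alternatives were CPM + 1, CPM + 10, no minimum or 50 CPM, TMM factors (edgeR 4.0.16, R 4.3.3), mean per-cell CPM, cells with over 1500 genes and under 10% mitochondrial UMIs, no cells of the top 5% of UMIs, no cells with a T or NK marker UMI, and each load alone. On counts simulated for RTT_PTGS12KO against RTT_ROSA26 in TAM_C1q, the log2 ratio was recovered within 0.25 for 98.5% of 200 changed genes (6834 genes in all). Python 3.11.15, numpy 2.4.6, scipy 1.17.1, pandas 2.3.3, biopython 1.88 and matplotlib 3.10.9 were used. Promoters are those of RefSeq, and coordinates and transcripts those of GENCODE for GRCm38.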

Additional observations from a re-analysis of the deposited data

Results flagged for a closer look

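Ms4a4b differed in direction between cell types in NTT against RTT, with a log2 ratio of 1.54 in Neutro and -1.37 in TAM_H2Ab1. Both rest on few UMIs (27 against 12 and 12 against 13), and the difference between the cell types was not tested.

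Ms4a4c differed in direction in RTT_ROSA26 against RTT, with a log2 ratio of 1.62 in Myofibrobl (65 UMIs against 77, in 59 and 249 cells) and -1.26 in Ctsk_Macro (134 against 224). The difference was not tested, and the loads ran from -1.21 to 3.15 in Myofibrobl and from -1.75 to -0.82 in Ctsk_Macro.

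Ms4a1, the CD20 gene of B cells, had 41 UMIs in 38 of all cells although the hosts do not make B cells, 21 of them in TAM_cycling. The B cell marker Cd79a had 33 UMIs.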

How the results depend on the processing

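Of 153 ratios of members within cell types, 41 were past 2-fold. Sign changes numbered 0 with CPM + 1, CPM + 10 or without the top 5% of cells by UMIs, 2 with TMM factors, 4 with mean per-cell CPM or the stricter cell filter, 1 without cells holding T or NK marker UMIs, and 6, 8 and 10 in single loads. Of the 41, CPM + 10 took 10 below 2-fold, other settings over all loads 1 to 5, and single loads 4 to 9, while 10 to 11 others passed it in single loads. Ratios past 2-fold that turned round were Ms4a4b in Infl_Mono for RTT_PTGS12KO against RTT_ROSA26 (1.04, and -0.044 in load 3) and Ms4a4c in Myofibrobl for RTT_ROSA26 against RTT (1.62, and -1.21 in load 1), and the cause was not tested. Counts of pairs past 2-fold stayed within 1.5 times of the main count except these. With a minimum of 50 CPM, NTT against RTT had 3 lower pairs in place of 9, since low members are not tested, and RTT_ROSA26 against RTT had 0 higher pairs in place of 1. That single higher pair became 0 with CPM + 10, 2 with mean per-cell CPM, 2 without the top 5% of cells and 3 without cells holding T or NK marker UMIs, and with no minimum CPM the 8 lower pairs became 13. No paired analysis was possible because no group has a second sample. Of 52 levels, 36 of Ms4a4b and 19 of Ms4a4a are under 10 CPM.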

Other observations

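Tmem176a and Tmem176b, relatives of the Ms4a genes on another chromosome, had 11397 and 16108 UMIs. In Macro, Tmem176b was 258 CPM in NTT and 232 in RTT_PTGS12KO, against 557 in RTT and 551 in RTT_ROSA26.

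Ms4a8a in Monocyte_1 was 40.9 CPM in NTT, with RTT at 127, RTT_ROSA26 at 84.9 and RTT_PTGS12KO at 79.0, and in Infl_Mono 46.8 CPM against 140, 95.7 and 96.6, so that NTT was the lowest sample in both monocyte types, where Ms4a4c was highest in NTT. Ms4a14 in TAM_C1q was 16.2 CPM in RTT, with 19.8 in RTT_ROSA26 and 11.1 in RTT_PTGS12KO, the same order of samples as Ms4a7.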
